A study of Mus musculus with 3 samples.

Results

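Cytosolic ribosomal protein genes were followed in follicular regulatory T (Tfr) cells that lacked Rptor. The members were the probe sets annotated to a single gene symbol made of Rpl or Rps and a number, with at most the ending a, b, x, l or l1, or to Rplp0, Rplp1, Rplp2 or Rpsa, with pseudogenes and Rps6k kinases left out. This gave 104 probe sets of 48 genes, 26 of the large and 22 of the small ribosomal subunit, among 18193 genes that a probe set named alone. A further 28 symbols of this form, Rpl5 and Rplp1 among them, occurred only on probe sets that also listed other loci and were not analysed as genes.

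The mice were C57BL/6, immunized with OVA, and their spleens were taken on day 8. After lineage depletion, Tfr cells were sorted by their staining for CXCR5, CD25, GITR, CD44 and CD4. The wild-type (WT) group was 1 pool of 4 mice on 1 array. The Rptor-null group, labelled Rptor-/- and taken from CD4-Cre Rptor fl/fl mice, was 2 pools of 8 mice each on 1 array per pool, called pool 1 and pool 2 after the replicate numbers in the labels. CD4-Cre acts from the thymus onward in the T cell lineage, so other T cells of these mice also lacked Rptor. Whether the WT mice carried the Cre or the floxed allele was not given in the sources used here. The labels call the Rptor-null pools biological replicates. The single WT array has no replicate error of its own.

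Each ribosomal protein is a structural part of the large or small subunit of the cytosolic ribosome, and cells make all of them in balanced amounts. Rptor encodes raptor, the subunit that lets the kinase complex mTORC1 bind its substrates. The messenger RNAs of ribosomal proteins begin with a C followed by a run of pyrimidines, the 5′ terminal oligopyrimidine (TOP) start, through which mTORC1 controls how strongly they are translated. Arrays measure the amount of RNA and not its translation.

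The annotated starts of the genes that passed the test below, and of Rps6 and Rplp2, show this feature and its absence. Each line gives 12 bases before and 18 bases from the RefSeq start in GRCm38.p6, 5′ to 3′ on the strand of the gene, and the capitals mark a C with at least 4 following pyrimidines (C or T) that begins no more than 10 bases from the start.
Rpl27a: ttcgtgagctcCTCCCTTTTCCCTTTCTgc
Rps9: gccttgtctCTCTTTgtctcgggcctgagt
Rps27l: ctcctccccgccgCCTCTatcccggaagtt
Rpl27: ctctgttcctgtctgctgctcgtgctgcta
Rpl37a: cgctcgccggtctaaaaccgcgcatgcgca
Rpl41: acgggccggctcggaagtgacgacaccgag
Rps6: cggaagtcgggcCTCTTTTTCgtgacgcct
Rplp2: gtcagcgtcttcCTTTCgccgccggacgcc
The windows lie at chr7:109519183-109519212 on the plus strand for Rpl27a, chr7:3704029-3704058 (plus) for Rps9, chr9:66946074-66946103 (plus; the first of its annotated starts) for Rps27l, chr11:101442233-101442262 (plus) for Rpl27, chr1:72711248-72711277 (plus) for Rpl37a, chr10:128549151-128549180 (minus) for Rpl41, chr4:86857350-86857379 (minus) for Rps6 and chr7:141447639-141447668 (plus) for Rplp2. Of the 42 member genes with a sequence in the RefSeq table, 27 (64.3%) held such a run near an annotated start, against 34.4% of 27025 genes with a promoter sequence. The run began exactly at the start base in 8 member genes (19.0%), among them Rps6 and Rplp2, against 3.01% of all genes. Only the strand of the gene was searched, and an annotated start can lie some bases from the one used in these cells. Among the 40 tested members with a sequence, the 26 with a run near the start had a median log2 difference between Rptor-null and WT of -0.093, and the 14 without one had -0.079.

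Values on these arrays are linear intensities as the authors processed them, and a gene is represented by its probe set with the highest mean level. Differences are Rptor-null minus WT on the log2(intensity + 16) scale, which understates the change of dim genes. They were tested with limma over 12721 genes (two-sided, Benjamini-Hochberg adjustment, threshold 0.05), and every adjusted p below comes from that fit unless it is named as the probe set fit. Because only the Rptor-null pools give a spread, the fit takes the spread of WT to be theirs, and a deviation of that array alone would move every difference. Control probe sets gave a 3′ to 5′ ratio that was higher in both Rptor-null arrays, at 1.11 in WT and 1.94 and 2.58 for Gapdh, and at 1.40, 2.65 and 2.87 for beta-actin. All 12 Tfr and T cell markers lay below WT in both pools, 7 of them past the test, and their summed intensity was 43230 in WT, 25224 in pool 1 and 24560 in pool 2. All 13 myeloid markers lay above WT, 9 past the test, with sums of 47111, 64758 and 72505, and no marker of any list was at 0. Foxp3, which defines regulatory T cells, read 752 in WT and 587 and 423 in the pools (adjusted p = 0.0799). All 6 basophil markers also lay above WT, 4 past the test, with sums of 1095, 1858 and 2220. The 6 B cell markers (sums 13773, 12407 and 14736) and the 4 tested erythroid markers (295, 323 and 282) had no call by limma (1 and 0 of them at an unadjusted p under 0.05). The B cell sum rests mostly on 1 probe set of Ighm, the IgM heavy chain, at 13183, 11901 and 14220. All 8 kept Ighm probe sets had mean differences below 0, from -2.91 to -0.019, and 2 passed the probe set fit as decreases. The larger decrease, from 8370 in WT to 1055 and 1155, had an adjusted p of 0.00052 in that limma fit, so the B cell sum does not show that B cell RNA was alike. In bulk RNA, fewer cells of a type and less RNA per cell cannot be told apart, and the part of these shifts in the results below was not tested.

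Most ribosomal protein genes read nearly the same in WT and Rptor-null Tfr cells. Of the 48 genes, 46 passed the filter on low values, and Rpl3l and Rps16 did not. Among the 46, 1 gene rose (Rpl27a), 5 fell (Rps9, Rps27l, Rpl37a, Rpl27 and Rpl41) and 40 did not pass the test. These are 13.0% of the members, against 15.0% of all genes called in either direction. The 5 decreases are 10.9% against 11.1% (increases over all genes, 3.93%), so the share called was close to that over all genes. Bright genes were called more often. In the brightest 5% of those tested, 53 of 601 other genes were called higher and 126 lower, against 1 and 5 of 36 members. Without a variance trend in the fit, the 5 decreases had adjusted p values from 0.0921 to 0.222. The median log2 difference was -0.087 over the members and -0.060 over all genes tested. The member median was -0.113 in pool 1 and -0.058 in pool 2, so that without pool 1 it was smaller by over 1.5 times. The median of all genes was -0.079 in pool 1 and -0.044 in pool 2. The differences were small on the brightest probe sets: 45 of 46 (97.8%) lay within 0.5 log2 units of WT, against 85.6% of all genes and 85.7% of the 601 other genes in the brightest 5% of those tested. These 601 genes were not matched to the members in level beyond that cut. Other kept probe sets of Rps9 (0.74), Rps20 (0.55), Rpl7l1 (-0.63) and Rps27l (-0.52) lay further than 0.5 from WT.

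**Figure D1:**
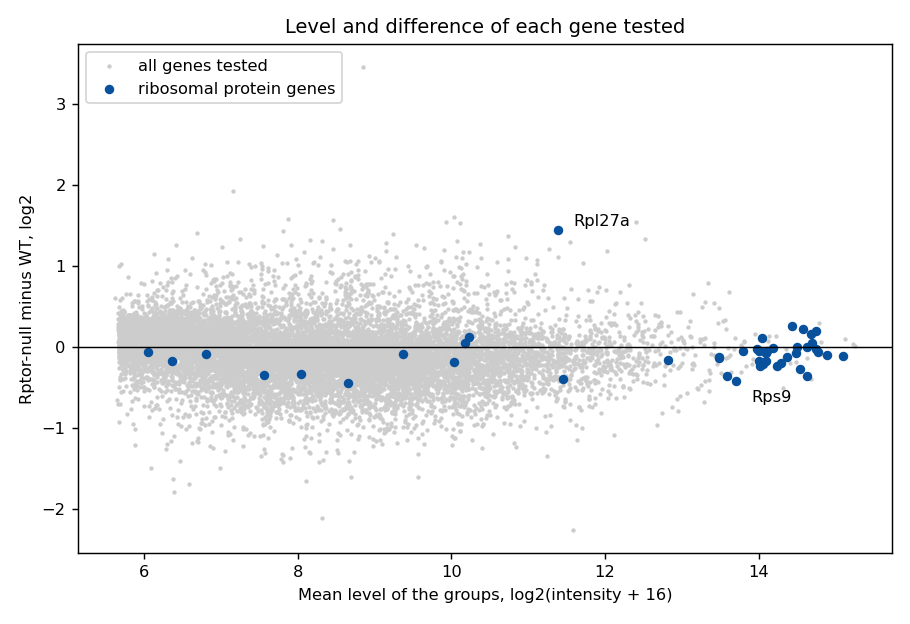
Difference between Rptor-null and WT cells (y axis, log2) against mean level (x axis, log2(intensity + 16)) for each of 12721 genes tested, with the 46 ribosomal protein genes in blue. Most members sit at the bright end close to 0, and Rpl27a stands above the other members at 1.45.

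Most members were bright. In WT, 33 of the 46 members exceeded an intensity of 10000, and 39 of the 46 fell in the top of 5 equal bins of level. In that bin the median difference of all genes was -0.124, while it was 0.078 in the dimmest bin and -0.155 in the fourth. The median of the members was thus nearer 0 than that of the bin that held most of them. In the brightest 5% of genes tested, the median was -0.096 over 601 other genes and -0.068 over 36 members. Of the 93 member probe sets kept, 62 were in the brightest 1% of the array. Some members read far lower in WT, among them Rpl27a (1615), Rps6 (1104), Rps27 (454), Rpl12 (279), Rpl14 (196) and Rpl39 (51.8). Rps16 read 10.8, below the filter. Whether these dim probe sets report the main transcript of their genes was not tested, so their readings are not levels of the genes. Both Rptor-null pools were below WT for 32 members and above it for 9, shares to be read against 48.7% and 32.8% of all genes, and 5 members lay on different sides in the pools. These are 69.6% and 19.6% of the members. In the top bin, 27 of 39 members and 1527 of all 2544 genes were below WT in both pools, and 23.1% of those members and 27.9% of those genes were above it. The large subunit had 25 tested genes with a median of -0.099, 21 of them below WT. The small subunit had 21 with a median of -0.067, 14 of them below WT.

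**Figure D2:**
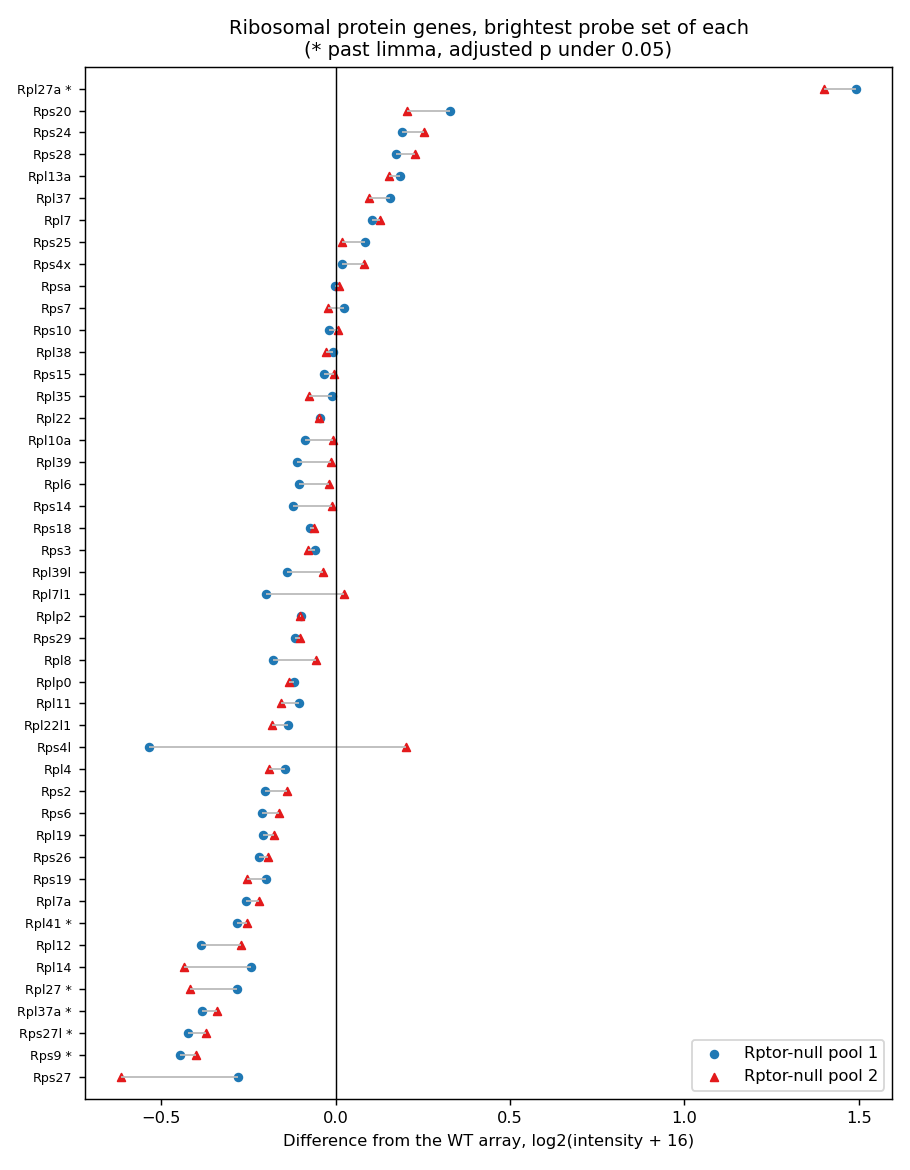
Log2 difference from the WT array of each of the 46 tested ribosomal protein genes in Rptor-null pool 1 (circles) and pool 2 (triangles), ordered by their mean. Asterisks mark the 6 genes past limma; both pools lie close together for most genes, and Rps4l has its pools on opposite sides of WT at -0.53 and 0.20.

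Rpl27a, which encodes a protein of the large subunit, was the exception in size. Its tested probe set read 1615 in WT, 4569 in pool 1 and 4292 in pool 2, so both pools lay far above WT and close to each other. The increase was 2.73-fold (Rptor-null mean 4431 ± 195, SD, n = 2; log2 difference 1.45 ± 0.090, SE; adjusted p = 0.0019), and Rpl27a was the only member at least 2-fold from WT in both pools, a mark that 0.990% of all genes met. The second Rpl27a probe set read 17.8, 19.0 and 18.8, below the filter level of 35.0, and gave no information on the gene. Another, bright probe set lists Rpl27a together with 4 other symbols and cannot be assigned to it. It read 24442 in WT against 23734 and 23040 without Rptor, a log2 difference of -0.064 (probe set fit, adjusted p = 0.625). The rise of Rpl27a thus rests on 1 probe set. It passed in all 11 alternative analyses with a test, with log2 differences from 1.40 to 1.56 over all alternatives. The 2 treatments of probe sets could not change its difference, because only 1 probe set was kept. Every alternative also used the same WT array, so none bears on that array or on the probe set.

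Rps9, a small subunit protein near the entry of the messenger RNA channel, gave opposite answers from its probe sets. The brightest, whose ID ends in _s_at, read 15397 in WT, 11304 in pool 1 and 11671 in pool 2. Both pools were below WT, 1.34-fold on average (log2 difference -0.42 ± 0.076, SE; adjusted p = 0.0129). The _x_at probe set read 4432 in WT and 7881 and 6959 in the pools, both above WT. That was a rise of 1.67-fold (0.74 ± 0.099; probe set fit, adjusted p = 0.0126), and the _s_at probe set also passed the probe set fit as a decrease (adjusted p = 0.0221). The _at probe set of Rps9 read 171 in WT and 169 and 132 in the pools (probe set fit, adjusted p = 0.641). With the mean of the 3 probe sets the difference was 0.047 (adjusted p = 0.807), and without _s_at and _x_at probe sets it was -0.17 (adjusted p = 0.586). Among the 20 members with 2 or more kept probe sets, only Rps9 had probe sets that passed the test in both directions. No direction was thus settled for Rps9.

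**Figure D3:**
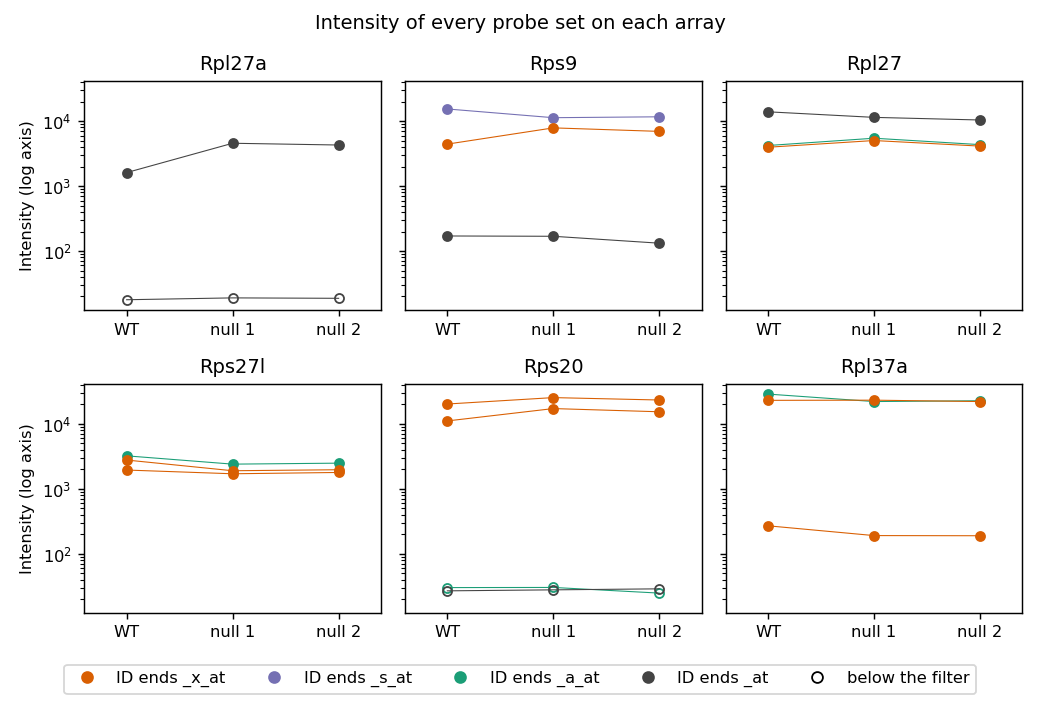
Intensity (log axis) of every probe set of 6 ribosomal protein genes on the WT array and the Rptor-null arrays (null 1, null 2), coloured by the ending of the probe set ID, with open symbols for probe sets below the filter. Thin lines join the points of a probe set; Rpl27a goes from 1615 in WT to 4569 and 4292 on its tested probe set, and the Rps9 probe sets move in opposite directions.

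The other decreases were smaller than 1.5-fold. Rps27l, a paralog of Rps27 that p53 induces, had the decrease with the most agreement. Its brightest probe set read 3211 in WT and 2394 and 2478 in the pools, 1.32-fold lower (log2 difference -0.40 ± 0.089; adjusted p = 0.0262). Its second fell 1.43-fold, from 2768 to 1894 and 1963 (probe set fit, adjusted p = 0.0252), and its other one read 1941 in WT and 1701 and 1782 (probe set fit, adjusted p = 0.392). All 3 probe sets were below WT in both pools. After quantile or cyclic loess normalization the adjusted p of the gene was 0.0992 or 0.0702.

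Rpl37a, a zinc-binding protein of the large subunit, read 28659 in WT and 21996 and 22635 in the pools on its brightest probe set. It was 1.28-fold lower (log2 difference -0.36 ± 0.073; adjusted p = 0.0187). A second bright Rpl37a probe set read 22957 in WT and 23105 and 21988 in the pools, on both sides of WT, and its difference was -0.026. The dim one read 269 in WT and 190 and 189 in the pools, a difference of -0.47 (probe set fit, adjusted p = 0.107). All 3 mean differences were below 0, and with their mean the adjusted p was 0.0534.

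Rpl27, a large subunit protein distinct from Rpl27a despite its name, read 13925 in WT and 11436 and 10419 in the pools on its brightest probe set, 1.28-fold lower (log2 difference -0.35 ± 0.086; adjusted p = 0.0348). In the probe set fit the same values had an adjusted p of 0.0509. The other Rpl27 probe sets both lay above WT in both pools, with differences of 0.21 and 0.20 (probe set fit, adjusted p = 0.406 and 0.387), and the mean of all 3 gave 0.019. After quantile or cyclic loess normalization the adjusted p of Rpl27 was 0.08 or 0.0653. Rpl41, the smallest protein of the ribosome, read 26120 in WT and 21485 and 21909 in the pools, 1.20-fold lower (log2 difference -0.27 ± 0.072; adjusted p = 0.0478). The 4 Rpl41 probe sets had differences from -0.27 to -0.041, all below 0. The Rpl41 call was lost in 5 of 11 alternatives, with adjusted p values from 0.0223 to 0.374.

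Probe sets of the same gene often lay on different sides of WT. Of the 46 tested genes, 20 had 2 or more kept probe sets, 67 in all. In 7 of these 20 genes (35.0%) every kept probe set had its mean difference on the same side of WT, 5 below and 2 above, against 50.9% of 5635 genes on the whole array. The 2 shares are not matched for the number of probe sets per gene or for the size of the differences. Values near 0, such as those of Rps7 (0.0022 and -0.0036), count as different sides, so the shares do not show that members disagree more. The genes with all probe sets below WT were Rpl37a, Rpl41, Rpl7l1, Rps15 and Rps27l, and those with all above were Rps20 and Rps24. The widest ranges of log2 difference among probe sets of a gene were those of Rps9 (-0.42 to 0.74), Rpl7l1 (-0.63 to -0.052), Rpl27 (-0.35 to 0.21), Rpl35 (-0.14 to 0.38) and Rpl37a (-0.47 to -0.026).

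**Figure D4:**
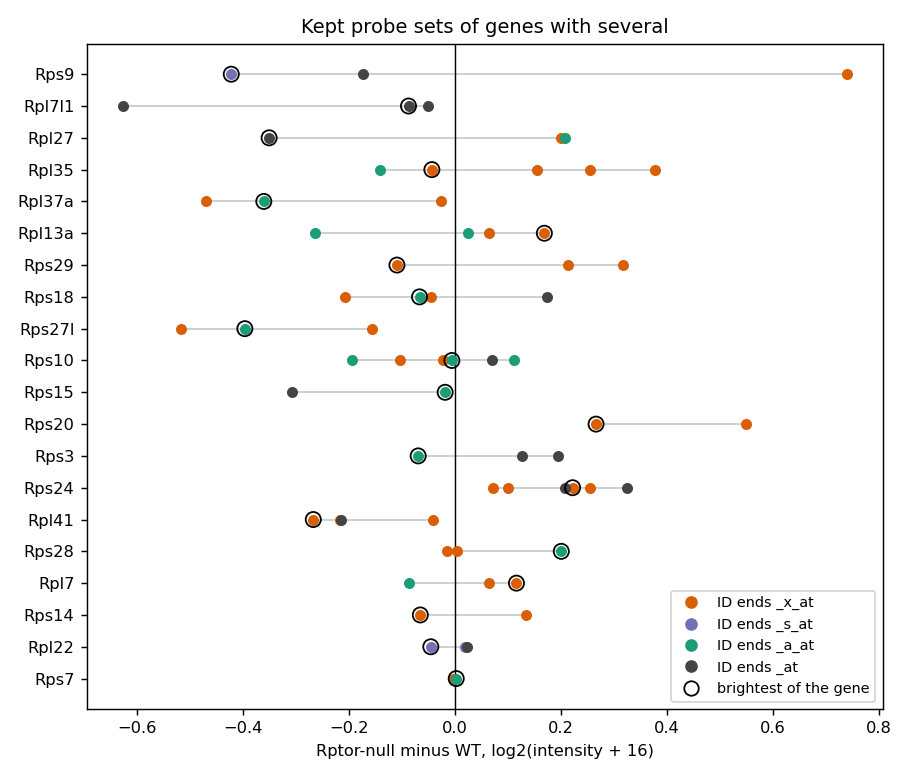
Log2 difference between Rptor-null and WT of the 67 kept probe sets of the 20 ribosomal protein genes with several, coloured by ID ending, with a ring around the probe set that stands for the gene. Rows run from the widest range (Rps9, at the top) to the narrowest (Rps7); only 7 genes have every point on 1 side of 0.

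The ending of the probe set ID, which the choice of members did not use, went along with the direction, as a description with no test. An ID ending in _x_at marks probe sets with some probes that also match other sequences, and ribosomal protein genes have many processed copies in the genome. The 38 kept _x_at probe sets of members had a median difference of 0.034, and both pools were above WT for 20 and below WT for 14. The 26 ending in _a_at had a median of -0.093, with 4 above and 19 below WT. The 26 ending in _at had a median of -0.087, with 8 above and 14 below. Over all 27022 kept probe sets, 35.8% were above WT in both pools and 43.9% were below. By ending, 693 were above and 650 below of 1639 _x_at probe sets, and 815 and 1987 of 3339 _a_at ones. Of 20455 ending in _at, 7670 were above and 8408 below.

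Other probe sets give the background. Over all kept probe sets the medians were 0.019 for _x_at, -0.145 for _a_at and -0.011 for _at. Among 105 kept probe sets that list a ribosomal protein symbol beside other loci, the 42 _x_at ones had a median of 0.104 and the 34 _a_at ones had a median of -0.132. In the brightest 5% of probe sets, those that list no ribosomal protein gene had medians of -0.084 for _x_at (n = 223), -0.099 for _a_at (n = 313) and -0.128 for _at (n = 537). In the 13 member genes with both kinds, the mean of the _x_at probe sets was above that of the others in 8, and the median gap was 0.060. At the probe set level, 4 member probe sets rose and 5 fell of 93 (9.68%), against 8.92% of all kept probe sets (2.81% higher and 6.11% lower). Of the 4 that rose, 3 ended in _x_at, as did 38 of the 93 member probe sets. Over all 1639 kept _x_at probe sets, 79 were called higher and 80 lower.

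**Figure D5:**
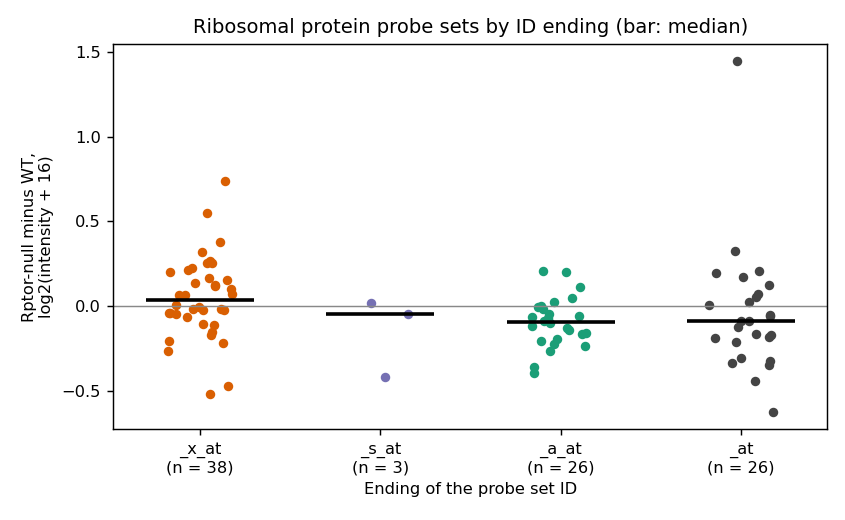
Log2 difference between Rptor-null and WT of the 93 kept ribosomal protein probe sets (points) by the ending of the probe set ID, with the median of each group as a bar. The _x_at group is centred just above 0 at 0.034 and the _a_at and _at groups just below it; the _s_at group has only 3 probe sets.

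The remaining probe set calls belonged to Rps20, Rps29 and Rpl7l1. Rps20, a small subunit protein, read 11067 in WT and 17154 and 15309 in the pools on 1 _x_at probe set, 1.46-fold higher (probe set fit, adjusted p = 0.0183). Its brighter _x_at probe set read 20160 in WT and 25303 and 23232 in the pools (log2 difference 0.27 ± 0.082; adjusted p = 0.0702), and its other probe sets were below the filter. Both kept Rps20 probe sets thus lay above WT in both pools, and the gene passed the test with their mean, after quantile or cyclic loess normalization, and with the 60th percentile filter (adjusted p = 0.0155, 0.0348, 0.0209 and 0.0371).

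Rps29, a small zinc-binding protein of the small subunit, had 1 _x_at probe set that read 24331 in WT and 31103 and 29573 in the pools, 1.25-fold higher (probe set fit, adjusted p = 0.0382). Its brightest read 36273 in WT and 33466 and 33768 in the pools, a difference of -0.11 in the other direction (adjusted p = 0.347). The remaining _x_at probe set read 22112 in WT and 26018 and 25244 in the pools, a difference of 0.21 (probe set fit, adjusted p = 0.103). Of the 3 Rps29 probe sets, 2 thus lay above WT and the brightest below it. Rps24, whose gene is mutated in some forms of Diamond-Blackfan anaemia, read 22545 in WT and 25739 and 26862 in the pools (log2 difference 0.22 ± 0.074; adjusted p = 0.0895). All 6 kept Rps24 probe sets lay above WT, with differences from 0.072 to 0.32.

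The members named for a fixed role, Rps6, Rpl11, Rplp0, Rplp2 and Rpsa, did not pass the test. Rps6, the protein that S6 kinase phosphorylates downstream of mTORC1, read 1104 in WT and 952 and 985 in the pools (log2 difference -0.19 ± 0.10; adjusted p = 0.277). Both pools were below WT by a small margin, on a probe set far dimmer than those of most members. Rpl11, which binds the p53 regulator Mdm2, read 11965 in WT and 11122 and 10740 in the pools (adjusted p = 0.31). The stalk proteins recruit translation factors to the ribosome. Among them Rplp0 read 22013 in WT and 20268 and 20066 in the pools (adjusted p = 0.294), and Rplp2 read 31298 in WT and 29240 and 29190 (adjusted p = 0.4). Rpsa, which also acts as a laminin receptor, read 25350 in WT and 25314 and 25552 in the pools, a difference of 0.0047, and its sign turned with median centring and quantile normalization.

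Paralogs were compared with the member of the same number. Rpl22l1, which can take the place of Rpl22 in the ribosome, read 7604 in WT and 6918 and 6700 in the pools (log2 difference -0.16; adjusted p = 0.232). Rpl22, which is needed for the development of some T cells, read 17999 in WT and 17440 and 17432 (difference -0.046; adjusted p = 0.728), and it turned above 0 after quantile or cyclic loess normalization. Neither member of this pair passed.

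Rpl7l1 had 3 kept probe sets, all ending in _at. Its brightest read 665 in WT and 577 and 676 in the pools, on both sides of WT (adjusted p = 0.713). Its second read 374 in WT and 229 and 244 in the pools, 1.54-fold lower (probe set fit, adjusted p = 0.046). Rpl7 read 16259 in WT and 17466 and 17775 in the pools (difference 0.12; adjusted p = 0.344), and without _s_at and _x_at probe sets it was represented by another one at -0.087.

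Rps27, the paralog of Rps27l, read 454 in WT and 371 and 291 in the pools. This was the largest decrease among the brightest probe sets, at -0.45 ± 0.17 (SE), but the pools lay apart and it did not pass (adjusted p = 0.121). Rpl39l read 99.2 in WT and 88.7 and 96.4 in the pools (adjusted p = 0.764), and Rpl39 read 51.8, 46.8 and 51.2 (adjusted p = 0.828). The probe sets of Rps27, Rpl39l and Rpl39 were dim in all 3 samples beside those of most members. Rps4l read 70.9 in WT and 44.1 and 84.0 in the pools, on both sides of WT, while Rps4x, the copy on the X chromosome, read 26018 in WT and 26338 and 27510 (difference 0.049; adjusted p = 0.713). Rpl3l, a striated muscle paralog, read 16.6, 12.2 and 19.3, below the filter on every array.

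The rest of the tested members ranged from -0.34 (Rpl14) to 0.20 (Rps28). Rpl7a (-0.24, adjusted p = 0.0717) and Rps19 (-0.23, adjusted p = 0.0881) lay below WT and missed the threshold by the least; the gene of Rps19 is the one most often mutated in Diamond-Blackfan anaemia. Rps28 (0.20, adjusted p = 0.114) and Rpl13a (0.17, adjusted p = 0.166), a protein with a role in interferon-dependent control of translation, had the next largest values above WT after Rps24. The other Rps28 probe sets lay near WT, at -0.016 and 0.0034. The second brightest Rpl13a probe set read 16416 in WT and 13581 and 13761 in the pools, a difference of -0.26 against the direction of the brightest (probe set fit, adjusted p = 0.0668). These 4 genes were chosen after their values were seen.

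Other genes of the translation machinery gave a context for the family. In a list of 21 other translation genes known for a TOP start, 17 were tested, 4 fell, 0 rose by limma (0 also at an unadjusted p under 0.05), and the median was -0.086. These 4 lower calls are 23.5% of the tested genes of the list, against 11.1% of all genes, with 3.93% of all genes higher. The genes of this list are bright. In the top level bin of all genes, 557 of 2544 were called lower and 192 higher, so the list does not show an excess of decreases. The decreases were those of Eif3l (1853 in WT, 1284 and 1216 in the pools; adjusted p = 0.0121), Eif3h (5700, 4184 and 3887; adjusted p = 0.0124) and Eif3e (11996, 9584 and 8559; adjusted p = 0.0275), subunits of initiation factor eIF3, and of Naca (14174, 11802 and 11158; adjusted p = 0.042), which binds nascent chains. With the mean of probe sets, 1 of the 17 genes was called lower.

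Ribosome assembly factors, which build the subunits and leave before translation, had a median of -0.24 over 26 tested genes, beside -0.060 over all genes. Of these, 5 fell (19.2%), 1 rose and 20 did not pass, against 11.1% of all genes lower and 3.93% higher. The background depends on level, with a median of 0.078 in the dimmest of 5 equal bins. In level bins 3, 4 and 5, counted from the dimmest, the medians were -0.137, -0.155 and -0.124. In each of these bins of 2544 genes, 263, 428 and 557 were called lower and 87, 134 and 192 higher. The list was not matched to other genes in level, so an excess of decreases in it was not tested. Eif6, which keeps the subunits apart until the large one is mature, fell from 1111 to 650 and 604 (log2 difference -0.81; adjusted p = 0.00626). Pno1, a factor of small subunit assembly, fell from 440 to 240 and 261 (-0.77; adjusted p = 0.0126). Bccip, Wdr12 and Rrp12 also fell, by 0.51, 0.61 and 0.61 on the log2 scale. The 1 increase was that of Rpf2, which brings the 5S particle to the large subunit, from 749 to 1741 and 1528 (1.11; adjusted p = 0.00402). With the mean of its probe sets Rpf2 was at 0.13 (adjusted p = 0.559) and Eif6 at -0.29 (adjusted p = 0.178).

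Genes that link mTORC1 to the ribosome had a median of 0.017 over 16 tested genes, with 1 higher and 0 lower by limma (3 lower at an unadjusted p under 0.05). The increase was 6.25% of the list, against 3.93% of all genes higher and 11.1% lower. Up to 3 were higher and 1 lower under the alternatives. Eef2k, the kinase that slows elongation, rose from 176 to 303 and 275 (log2 difference 0.66; adjusted p = 0.0258), a call that its averaged probe sets did not give (adjusted p = 0.0657). Rps6kb2, which encodes an S6 kinase, read 108 in WT and 68.3 and 67.5 in the pools (-0.57; adjusted p = 0.0507). Larp1, which binds TOP starts, is named outside the rule for named genes and read 1396 in WT and 1451 and 1538 in the pools (adjusted p = 0.571). Rptor read 365 in WT and 353 and 412 in the pools, on both sides of WT, with a mean difference of 0.059. Its other kept probe set had a mean difference of 0.31. Whether either probe set covers the deleted exons is not given in the sources used here, so they do not check the labels.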

How the data were processed

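Total RNA of 3 pools was turned into biotinylated cRNA, per the labels' protocols, and hybridised to 1 array per pool. The values deposited by the authors are linear intensities; the submitters' processing notes name MAS5, per the labels, and its version, role, background correction and scaling target were not given in the sources used here. Array medians were 52.8, 55.0 and 54.9; precision is limited by having 3 arrays. Of 45101 probe sets, 34945 named 1 gene. Intensities became log2(intensity + 16); 64 control probe sets and those whose 2 group means averaged no more than the 40th percentile (35.0) were dropped, keeping 27022 probe sets and 12721 genes. The brightest kept probe set stood for a gene.

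Fits used limma 3.58.1 in R 4.3.3 (lmFit, eBayes with a mean-variance trend, 1 residual and 6.39 prior degrees of freedom), at gene and at probe set level. The gene level fit was also run on simulated data. These gave the WT array the spread of the Rptor-null arrays, so they could not check that assumption. Named genes were the members past either fit, the 3 largest changes each way, the 5 widest probe set ranges, members with fixed roles, and paralogs ending in l or l1 with their partners; in each list of other translation genes, calls and the 2 largest changes. The members and lists were chosen with earlier results of these data known. Labels call the Rptor-null pools biological replicates and give no batch. Promoter windows came from the RefSeq table for GRCm38.p6.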

Additional observations from a re-analysis of the deposited data

How the results depend on the processing

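Alternatives were 2 pseudocounts (1 and 64), 2 filters, 3 scalings, 2 treatments of probe sets, 2 variance priors and leaving out each Rptor-null array. Leaving out 1 array leaves no residual degree of freedom, so calls were not recomputed there. No paired analysis was possible because the WT group has 1 array. The Rpl27a call held in all 11 tested alternatives, all of which used the same WT array and the same probe set. Member genes called higher (1) became 3 with the 60th percentile filter, 2 after quantile normalization, 3 after cyclic loess and 2 with the mean of probe sets. Those called lower (5) became 3 after quantile normalization, 2 after cyclic loess, 3 without _s_at and _x_at probe sets, 1 with averaged probe sets and 0 with no variance trend. Member probe sets called higher (4) became 9 after cyclic loess, 1 without _s_at and _x_at and 0 without a trend. Those called lower (5) became 3 without a filter, 9 with the 60th percentile filter, 10 after median centring, 3 after quantile normalization, 3 after cyclic loess, 3 without _s_at and _x_at and 0 without a trend. The member median of -0.087 moved to -0.132 with median centring and -0.037 with cyclic loess. The median of all genes, -0.060 as reported, moved along to -0.105 and -0.0062. With the 60th percentile filter it was -0.118 over all genes and -0.087 over the members, so the members then lay nearer 0. Genes with probe sets on the same side went from 7 of 20 to 3 of 8 without _s_at and _x_at. Over all genes, 500 higher and 1411 lower calls became 917 higher with cyclic loess, 700 lower after quantile normalization, and 301 and 769 without a trend; the share of calls that were higher went from 26.2% to 42.9% after quantile normalization and 43.7% after cyclic loess. Among the TOP genes the 4 lower calls became 7 with median centring, 1 with averaged probe sets and 0 with no trend, and the 0 higher became 1 without _s_at and _x_at. Among assembly factors the 5 lower calls became 8 with the 60th percentile filter and with median centring and 2 after quantile normalization, and the 1 higher became 0 with the mean of probe sets. In the mTORC1 list the 1 higher call became 3 with cyclic loess and 0 with either treatment of probe sets, and the 0 lower became 1 under pseudocount 64, median centring, cyclic loess, both treatments of probe sets and no trend.

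Signs turned for genes near 0 or with discordant probe sets. With the mean of probe sets Rpl27 was at 0.019, Rpl35 at 0.12, Rps29 at 0.14 and Rps9 at 0.047. After quantile normalization Rpl22 was at 0.0056, Rpl35 at 0.073, Rpl7l1 at 0.034 and Rpsa at -0.0077. After cyclic loess Rpl22 was at 0.027, Rpl35 at 0.032 and Rpl7l1 at 0.044. Without _s_at and _x_at Rpl22 was at 0.023 and Rpl7 at -0.087, and with median centring Rpsa was at -0.040. Apart from the treatment of probe sets and the offset that scaling removes, the cause was not tested.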
